A study of Mus musculus with 6 samples.

Results

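The genes described here encode the nonmuscle contractile core of a fibroblast. They are the cytoplasmic actins Actb and Actg1, the nonmuscle myosin II heavy chains Myh9 and Myh10, the nonmuscle alpha-actinins Actn1 and Actn4, the tropomyosins Tpm1 and Tpm4, and the filamin Flnc. Their regions of open chromatin were taken by 2 criteria, the gene name in the authors' deposited tables and a distance of at most 100 kb from the nearest transcription start site. This gave 62 regions at 9 genes, out of 64217 regions in all, of which 53913 lay within the same distance of a start site. The farthest of the 62 lay 61.7 kb from a start site, and no region of these genes lay beyond the limit of 100 kb.

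Accessible DNA was mapped with Omni-ATAC-seq, an assay that lets a transposase place sequencing adapters wherever chromatin is open, in primary lung fibroblasts of Col1a1-GFP transgenic mice. GFP-positive cells were sorted and seeded on collagen I-coated tissue-culture plastic, 32 kPa PDMS (a silicone) or 0.2 kPa PDMS, and were harvested after 8 days in medium with 10% serum, with no further treatment. The transgene and the sort are common to all 3 cultures, so the cells are those in which the Col1a1 reporter was on at the sort. Each culture had 2 libraries, 6 in all, and no label says whether the pair came from different mice. A level below is the authors' mean over the libraries of a culture, in log2 normalised reads in the region, and a fold is a difference of these log2 levels, so that a fold of 1 is a doubling. Values per library, and with them the spread between libraries and the depth, are unknown. The authors' p-values and false discovery rates (FDR) therefore carry all of the information on error. They set a difference between cultures against the variation between the libraries in hand, which may be technical, and do not give that variation itself. In bulk libraries, a region open in more of the cells and a region more open in each cell cannot be told apart.

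The labelled cell type was checked at start sites, taking the strongest region within 1000 bases. Of 10 fibroblast genes all but Lum had such a region, at levels of 2.97 to 6.15 on plastic and 3.76 to 6.14 on 32 kPa. Their medians, 4.06 on plastic and 4.19 on 32 kPa, were below those of all promoter regions, 5.27 on plastic and 5.28 on 32 kPa. None of 5 epithelial and none of 3 mesothelial genes had one. Among 4 endothelial genes only Kdr did (3.02 on plastic, 3.08 on 32 kPa), among 4 leukocyte genes only Lyz2 (4.29 on plastic, 5.01 on 32 kPa), and among 3 smooth muscle and pericyte genes only Myh11 (5.45 on plastic, 5.25 on 32 kPa). What other cells contributed to the regions below was not tested.

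Actin filaments, nonmuscle myosin II and their crosslinkers make up stress fibres. Myosin II pulls on antiparallel actin filaments, alpha-actinin crosslinks the filaments and anchors them at adhesions, tropomyosin lies along them and sets which proteins can bind, and filamin joins filaments into orthogonal networks and links them to the membrane. Fibroblasts on stiff surfaces are known to build thick stress fibres and on soft surfaces few of them. Several of these genes are known targets of serum response factor (SRF), which binds the CArG box and is activated when its cofactors are released from actin monomers, and the TEAD factors of the YAP and TAZ pathway are another known route from tension to these genes.

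The positions of the 62 regions differed widely between the genes. Of the 62, 31 were intronic, 21 intergenic and 10 at an annotated promoter. They were 84 to 738 bp wide with a median of 195 bp. Actn1 had 16 regions and Myh9 had 13, against 8 at Actb, 6 each at Actn4 and Tpm1, 5 each at Myh10 and Tpm4, 2 at Flnc and 1 at Actg1. The median was 6 regions per gene over the 9 genes and 2 over all 17919 genes with a region in the window. Of the 62, 7 lay in an annotated repeat and 2 in a CpG island outside a promoter, per the annotation in the authors' deposited table.

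**Figure D1:**
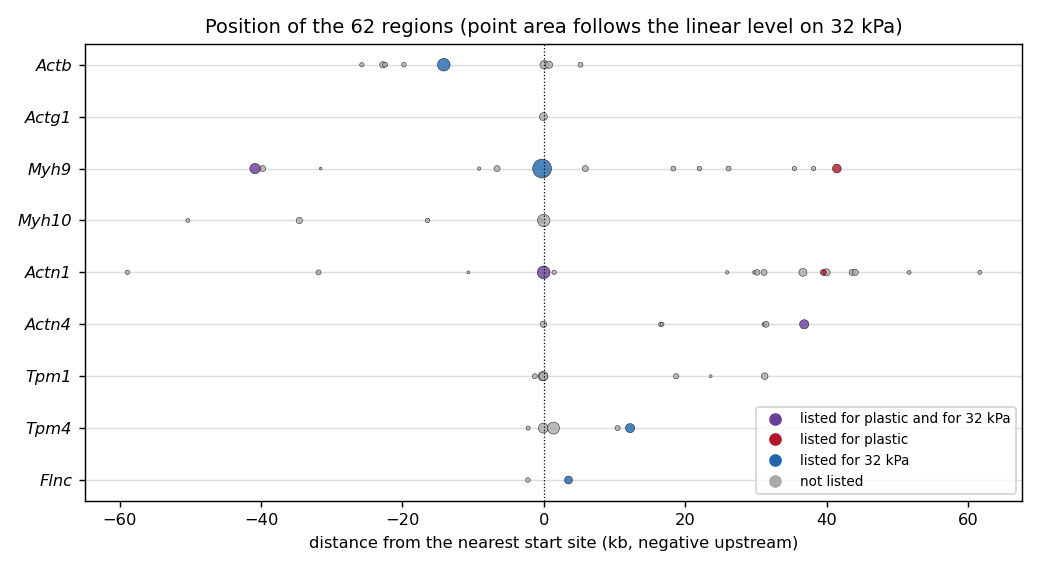
Distance of each of the 62 regions from its nearest start site in kb (horizontal axis, negative upstream) for the 9 genes (rows), with point area following the linear level on 32 kPa and colour giving the authors' list or lists that hold the region. The listed regions of Actn1 and Myh9 lie both at the promoter and about 40 kb away, and Actg1, Myh10 and Tpm1 have no coloured point.

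Per length of gene, open regions were sparsest along Myh10 and Flnc among the 9 genes. By RefSeq, in the coordinates of mm10, Myh10 spans 125 kb of chromosome 11 (68691915 to 68816626). Only 2 regions overlapped it, its promoter and a region assigned to the neighbouring gene Ndel1, or 0.160 regions per 10 kb of gene. Flnc, which spans 28.7 kb, had 0.348 per 10 kb, from a single region. Myh9 (81.6 kb) and Actn1 (92.9 kb) had 1.35 and 1.40 per 10 kb, and Actn4 (69.1 kb) had 1.30. The shorter genes had more, 1.48 at Tpm1, 2.80 at Tpm4, 3.56 at Actg1 and 4.11 at Actb, where a single region weighs more. These counts include regions that the deposited annotation assigns to a neighbour, 3 inside Myh9 to Apol8, 3 inside Actn4 to Capn12 and 1 inside Tpm4 to Rab8a. None of the regions assigned to a neighbour was listed in either comparison with 0.2 kPa.

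The promoters that carry the comparison are shown here as sequence, from the RefSeq promoter windows of GRCm38.p6, whose coordinates are those of mm10. The windows run 250 bases upstream to 50 downstream of a start site, and 8 of the 9 genes matched, with 9 windows (Actb had no entry). Myh9 and Actn1 are the 2 genes whose promoter was listed as more open on a stiffer culture. Myh10 is the paralogue of Myh9, with an open promoter that was not listed, and Actg1 has the only window with a CArG box. The part upstream of the annotated gene is printed, 5′ to 3′ on the strand of the gene. Capitals mark every match, on either strand, to the CArG box, to CATTCC (the core of the TEAD motif), to TGANTCA (bound by AP-1), to CCAAT (bound by NF-Y), to GGGCGG (bound by Sp factors) or to TATAAA (the TATA box), and matches that overlap run together.
Myh9 promoter, chr15:77842176-77842425, minus strand: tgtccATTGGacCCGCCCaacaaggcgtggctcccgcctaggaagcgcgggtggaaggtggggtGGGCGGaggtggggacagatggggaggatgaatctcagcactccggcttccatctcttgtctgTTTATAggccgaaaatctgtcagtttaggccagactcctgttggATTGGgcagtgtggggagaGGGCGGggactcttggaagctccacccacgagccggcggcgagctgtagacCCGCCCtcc
Myh10 promoter, chr11:68691665-68691914, plus strand: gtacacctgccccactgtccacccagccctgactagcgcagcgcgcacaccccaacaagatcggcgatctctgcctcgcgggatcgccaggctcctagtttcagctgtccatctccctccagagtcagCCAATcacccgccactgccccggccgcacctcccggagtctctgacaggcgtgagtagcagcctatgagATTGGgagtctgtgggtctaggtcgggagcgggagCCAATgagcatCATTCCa
Actn1 promoter, chr12:80260421-80260613, minus strand: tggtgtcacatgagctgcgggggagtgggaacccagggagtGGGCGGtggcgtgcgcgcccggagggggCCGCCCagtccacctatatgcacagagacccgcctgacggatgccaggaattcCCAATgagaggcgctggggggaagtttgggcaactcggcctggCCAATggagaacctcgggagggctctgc
Actg1 promoter, chr11:120348496-120348745, minus strand: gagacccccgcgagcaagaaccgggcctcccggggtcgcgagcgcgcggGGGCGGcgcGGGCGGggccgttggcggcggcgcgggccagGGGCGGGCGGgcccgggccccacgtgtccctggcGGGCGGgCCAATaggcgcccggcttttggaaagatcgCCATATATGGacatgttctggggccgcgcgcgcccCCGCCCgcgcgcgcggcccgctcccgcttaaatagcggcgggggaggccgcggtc
The printed bases of Myh9 and Actn1 lay wholly inside an open region, as did 238 of the 250 bases of Actg1 and 225 of the 250 bases of Myh10.

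A CArG box, a sequence bound by SRF, was found only in the window of Actg1 among the 9 windows, starting 90 bases upstream of the start site. It was present in 1.63% of 32851 RefSeq promoter windows of the same length. CATTCC occurred in 5 of the 9 windows (14.7% of all), those of Myh10, Actn4, Tpm1 and both of Flnc. It was in neither the Myh9 nor the Actn1 window, although the listed promoter regions of these genes extend beyond the windows. The Flnc windows overlap, so that their CATTCC is the same site and most of their GGGCGG matches are shared. TGANTCA occurred in 1 of the 9, that of Actn4 (7.81% of all). CCAAT was in 6 of the 9 (37.4% of all) and GGGCGG in 8 of the 9 (35.7% of all). Of the sequences shown above, Myh9 held 4 GGGCGG, 2 CCAAT and the only TATAAA, at 123 bases upstream, and Actn1 held 2 GGGCGG and 2 CCAAT. The Actn1 sequence has 193 bases and ends 58 bases upstream of the start site of its window. That of Myh9 has 250 bases and ends 1 base upstream. Over the whole windows Myh9 held 6 GGGCGG and Actn1 held 4, with 2 CCAAT in each. A match describes the letters alone. The distal regions and the parts of promoter regions outside the windows were not searched.

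Without correction for width, the region with the highest level was a promoter at 5 of the 9 genes (Actg1, Myh9, Myh10, Actn1 and Tpm1). It was an intronic region at Actn4, Tpm4 and Flnc, and an intergenic one at Actb. The levels of the 62 regions ran from 3.06 to 8.13 on plastic (median 4.76) and from 2.53 to 8.18 on 32 kPa (median 4.62), against medians over all regions in the window of 4.31 on plastic and 4.24 on 32 kPa. Because wider regions collect more reads, levels were compared between genes per kilobase of region. On that scale the highest region of 3 genes changed. The Tpm4 promoter stood above its intronic region (7.61 on plastic, 7.78 on 32 kPa). At Flnc the intergenic region was higher on plastic (7.41, against 7.25 for the intronic one). At Tpm1 an intronic region was higher on 32 kPa (7.71, against 7.66 for the upstream promoter). Among promoters the Myh9 promoter came first on that scale (8.57 on plastic, 8.62 on 32 kPa), followed on 32 kPa by the promoters of Myh10 (8.11 on plastic, 8.25 on 32 kPa), Tpm4 (8.01 on plastic, 8.16 on 32 kPa) and Actn1 (8.04 on plastic, 8.07 on 32 kPa). The Actb promoter followed (7.33 on plastic, 7.72 on 32 kPa), then the upstream promoter of Tpm1 (7.73 on plastic, 7.66 on 32 kPa), the internal promoter of Tpm1 (7.39 on plastic, 7.41 on 32 kPa) and the promoter of Actg1 (7.20 on plastic, 7.25 on 32 kPa). The Actn4 promoter was the lowest, at 7.06 on plastic and 6.79 on 32 kPa. A further Myh10 promoter region, 0.46 kb upstream and 94 bp wide, had 7.07 on plastic and 7.36 on 32 kPa. The Actb region 14.2 kb upstream, which is no promoter, had 8.24 on plastic and 8.51 on 32 kPa on the same scale. With no spread between libraries, neighbours in this order cannot be said to differ. No region of Flnc was annotated as a promoter.

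**Figure D2:**
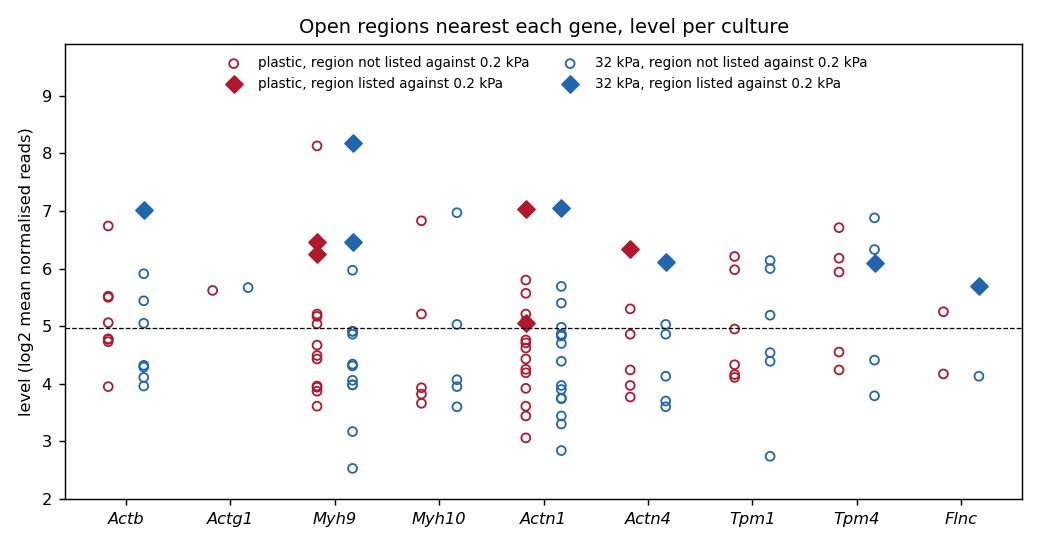
Authors' mean level of each region in log2 normalised reads (vertical axis) for the 9 genes, with plastic in red and 32 kPa in blue; filled diamonds are regions listed by the authors as more open on that culture than on 0.2 kPa, and the dashed line is the lowest level of any region listed for 32 kPa (4.97). The Myh9 promoter is the highest point in both cultures, at 8.13 on plastic and 8.18 on 32 kPa.

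Of the 62 regions, 9 were listed by the authors as more open on at least 1 of the stiffer cultures than on 0.2 kPa. These lay at Actb, Myh9, Actn1, Actn4, Tpm4 and Flnc, while Actg1, Myh10 and Tpm1 had none. The lists hold regions with an FDR of at most 0.05 and a fold of at least 1, and all listed regions of the series were higher on the stiffer culture. A region outside the lists can therefore differ by less than a doubling or have failed the FDR, and its level on 0.2 kPa is not known here. Regions more open on 0.2 kPa were not analysed here. The lowest level of a listed region was 4.94 on plastic and 4.97 on 32 kPa. Of the 62 regions, 28 reached that level on plastic and 23 on 32 kPa.

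On plastic against 0.2 kPa, 5 regions at 3 of the 9 genes were listed, namely Myh9, Actn1 and Actn4. That is 17.9% of the 28 regions high enough to be listed, against 11.1% of all such regions in the window, and 8.06% of the 62, against 3.34% of all regions in the window. Over genes with a region high enough, 3 of 9 compares with 15.4% of all genes. On 32 kPa against 0.2 kPa, 7 regions at 6 genes were listed, those of Actb, Myh9, Actn1, Actn4, Tpm4 and Flnc. That is 30.4% of the 23 regions high enough, against 12.5% of all such regions, and 11.3% of the 62, against 3.57% of all. Over genes, 6 of 9 compares with 17.2%. No test of these shares was made, since the genes were chosen with earlier results of these data known. Genes with many regions and regions with high levels were listed more often over the whole window too, and the 9 genes have both. Among genes with at least 5 regions and a region high enough, the comparison is 3 of 7 against 20.8% for plastic and 5 of 7 against 24.2% for 32 kPa. Among regions with a level of at least 6 it is 4 of 10 against 12.4% for plastic and 6 of 11 against 17.9% for 32 kPa.

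**Figure D3:**
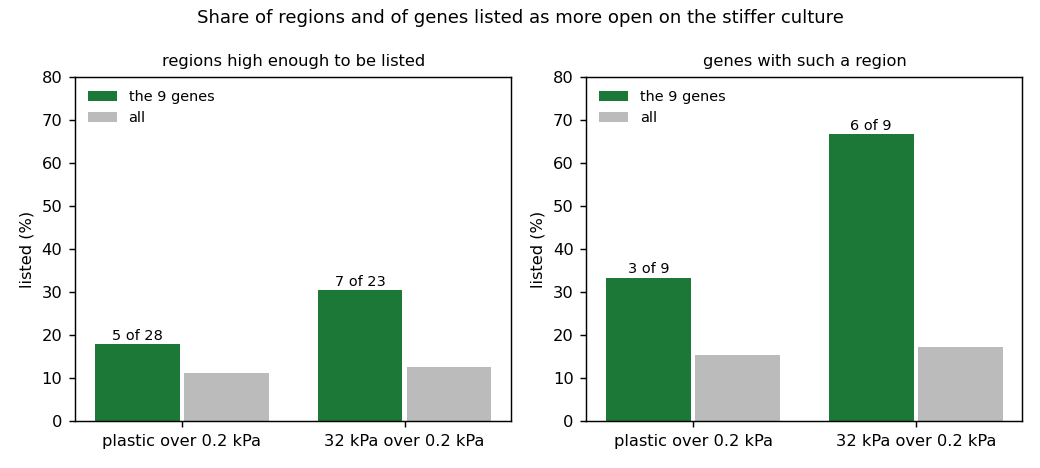
Percent of regions high enough to be listed (left) and percent of genes with such a region (right) that the authors listed as more open on plastic or on 32 kPa than on 0.2 kPa, for the 9 genes (green) and for all regions or genes in the window (grey). The green bars stand for 5 of 28 and 7 of 23 regions and for 3 of 9 and 6 of 9 genes.

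The cytoplasmic actins, which polymerise into the filaments themselves, differed in their number of regions and in listing. At Actb the strongest region was not the promoter but an intergenic region 14.2 kb upstream (chr5:142920731-142921105). It had a level of 7.03 on 32 kPa, against 5.80 on 0.2 kPa, a fold of 1.23 in the authors' deposited table (FDR = 0.00129), a 2.35-fold linear difference. This was the largest fold among the 7 regions listed for 32 kPa, and 76.6% of all regions of that list had a smaller one. In the table that holds both stiffer cultures the same region had 6.74 on plastic and 7.01 on 32 kPa. The level on plastic was thus 0.94 above the 0.2 kPa level given in the list for 32 kPa. The region was not listed for plastic, and its fold and FDR in the authors' comparison of plastic with 0.2 kPa are not known here. The nearest other protein-coding gene, Fbxl18, lay 24.01 kb from the region. The Actb promoter (57 bases from the start site) had 5.52 on plastic and 5.91 on 32 kPa, and an intronic CpG island 720 bases from the start site had 5.50 on plastic and 5.44 on 32 kPa. Neither was listed, although both were high enough to be.

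Actg1 had a single region, its promoter (chr11:120348399-120348733), with 5.62 on plastic and 5.67 on 32 kPa. Its level was above the lowest listed level in both cultures, and it was listed in neither. The gene is short, at 2.81 kb. Actb, in contrast, had 6 intergenic regions, from 5.18 kb downstream to 25.7 kb upstream of its start site, of which 2 were high enough to be listed for either culture. The one not listed, 22.8 kb upstream in a SINE repeat, had 5.06 on plastic and 5.05 on 32 kPa.

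The myosin heavy chains, the motors of the system, differed in how many of their regions were listed, 3 at Myh9 and none at Myh10. The Myh9 promoter (chr15:77842061-77842785) had a level of 8.18 on 32 kPa, against 7.15 on 0.2 kPa, a fold of 1.04 in the authors' deposited table (FDR = 0.000818), a 2.06-fold difference. Of that list 1.04% of regions had a lower FDR and 19.9% a smaller fold. On plastic the promoter had 8.13, which was 0.98 above 0.2 kPa. Its level, without correction for width, exceeded that of 99.6% of all 12568 promoter regions in both stiffer cultures. In the comparison of those 2 cultures it was 738 bp wide, against a median of 177 bp for promoter regions.

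An intergenic region 40.8 kb upstream of Myh9 was listed in both comparisons, which share the 0.2 kPa libraries. On plastic (chr15:77882814-77883200) it had 6.46, against 5.38 on 0.2 kPa, a fold of 1.08 in the authors' deposited table (FDR = 0.00409). On 32 kPa (chr15:77882849-77883234) it had 6.44, against 5.37 on 0.2 kPa, a fold of 1.07 in the authors' deposited table (FDR = 0.0103). Another protein-coding gene, Txn2, lay 31.8 kb away, closer than the Myh9 start site, and the region is assigned to Myh9 by nearest start site. A region in intron 3 of Myh9, 41.4 kb from the start site (chr15:77800619-77800864), had 6.27 on plastic, against 5.12 on 0.2 kPa, a fold of 1.14 in the authors' deposited table (FDR = 0.00622). It was not listed for 32 kPa, where its level was 5.97, or 0.85 above 0.2 kPa. The other 10 Myh9 regions were weaker, with levels up to 5.21 on plastic and up to 4.91 on 32 kPa.

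At Myh10 no region was listed. The main promoter region (chr11:68691690-68692102) had 6.83 on plastic and 6.97 on 32 kPa and was listed in neither comparison. Without correction for its width of 413 bp, these levels were above 91.1% of promoter regions on plastic and 92.4% on 32 kPa. The other 4 Myh10 regions lay upstream, the farthest at 50.4 kb. Of these only one, 34.6 kb upstream in an ERVL-MaLR repeat, was high enough to be listed (5.21 on plastic, 5.03 on 32 kPa). The difference between Myh9 and Myh10 in response to stiffness was not tested, because no level of Myh10 on 0.2 kPa is known here.

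The alpha-actinins, which crosslink filaments, were both listed in both comparisons, but at different kinds of region. At Actn1 it was the promoter. On plastic (chr12:80260160-80260655) it had 7.04, against 5.88 on 0.2 kPa, a fold of 1.15 in the authors' deposited table (FDR = 0.000229, 2.22-fold). On 32 kPa (chr12:80260201-80260655) it had 7.03, against 5.84 on 0.2 kPa, a fold of 1.19 in the authors' deposited table (FDR = 0.00154, 2.28-fold). An intronic region 39.5 kb from the start site (chr12:80220753-80220939) was weak and had 5.07 on plastic, against 3.85 on 0.2 kPa, a fold of 1.22 in the authors' deposited table (FDR = 0.043). On 32 kPa it stood at 4.83, which was 0.98 above 0.2 kPa but under the lowest listed level of 4.97. It belonged to a run of intronic regions between 25.92 and 44.04 kb from the start site, of which the strongest, at 36.6 kb, had 5.80 on plastic and 5.69 on 32 kPa and was not listed.

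At Actn4 it was a distal intronic region, and the promoter was not listed. The region in intron 1 lay 36.8 kb from the start site and 31.8 kb from Capn12, the next protein-coding gene. On plastic (chr7:28925356-28925664) it had 6.35, against 5.10 on 0.2 kPa, a fold of 1.24 in the authors' deposited table (FDR = 0.00204), a 2.36-fold difference and the largest fold of the 5 regions listed for plastic. On 32 kPa (chr7:28925359-28925656) it had 6.12, against 5.09 on 0.2 kPa, a fold of 1.03 in the authors' deposited table (FDR = 0.0194). The Actn4 promoter had 5.30 on plastic and 5.03 on 32 kPa, against lowest listed levels of 4.94 on plastic and 4.97 on 32 kPa. The remaining 4 Actn4 regions, all intronic, had levels of 3.77 to 4.86 on plastic and 3.6 to 4.86 on 32 kPa, under the lowest listed levels.

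Of the tropomyosins, which coat the filaments, Tpm4 had 1 listed region and Tpm1 none. The Tpm4 region lay in the last intron, 12.2 kb from the start site (chr8:72147268-72147658). It had 6.07 on 32 kPa, against 5.05 on 0.2 kPa, a fold of 1.02 in the authors' deposited table (FDR = 0.0276). On plastic the overlapping region had 5.94, which was 0.89 above 0.2 kPa. Tpm4 had stronger regions that were not listed, its promoter (6.18 on plastic, 6.33 on 32 kPa) and a region 1.36 kb into intron 1 (6.71 on plastic, 6.88 on 32 kPa). Without correction for its width of 535 bp, that intronic region exceeded 99.0% of non-promoter regions on plastic and 99.3% on 32 kPa.

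Tpm1 had 2 promoter regions, which belong to different transcripts of the gene. The upstream one had 6.21 on plastic and 6.14 on 32 kPa, and the internal one had 5.98 on plastic and 6.0 on 32 kPa. A region 31.2 kb from the start site, beyond the 3′ end of the gene, had 4.95 on plastic and 5.19 on 32 kPa. All 3 were high enough to be listed in either comparison and were listed in neither.

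Flnc, a filamin best known from muscle, had a region in intron 1, 3.49 kb from the start site (chr6:29436618-29436867). It had 5.69 on 32 kPa, against 4.65 on 0.2 kPa, a fold of 1.03 in the authors' deposited table (FDR = 0.04). Its FDR was close to the limit of the list, and 88.4% of the listed regions had a lower one. On plastic it had 5.25, 0.60 above 0.2 kPa and the smallest such difference among the 9 listed regions. The nearest other protein-coding gene, Ccdc136, was 9.62 kb away. The other Flnc region, 2.26 kb upstream, had 4.17 on plastic and 4.13 on 32 kPa.

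**Figure D4:**
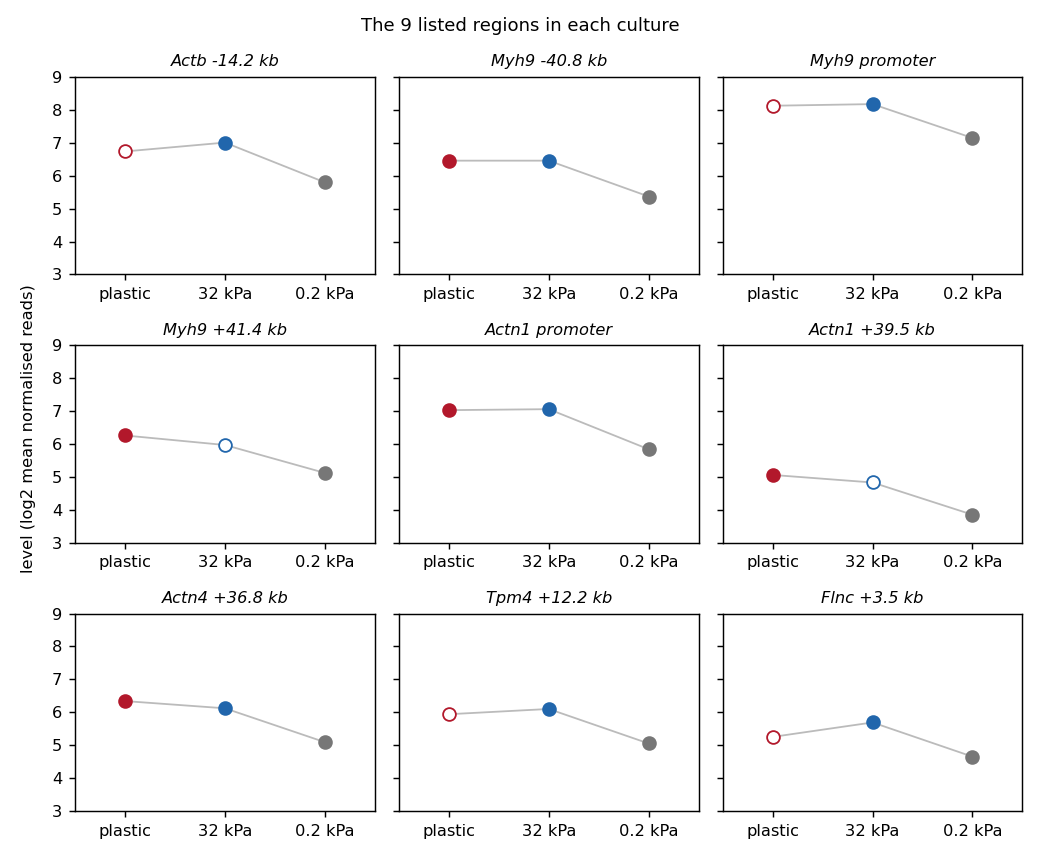
Authors' mean level of the 9 listed regions in log2 normalised reads (vertical axis) on plastic, 32 kPa and 0.2 kPa, each panel titled by gene and distance from the start site; a filled red or blue point marks a culture for which the region was listed against 0.2 kPa, and the grey point is the level on 0.2 kPa, from the list of 32 kPa where it holds the region and otherwise from that of plastic. The level on 0.2 kPa is the lowest in every panel, which for a listed culture follows from the choice of listed regions. Over both stiffer cultures the differences from it run from 0.60 (Flnc on plastic) to 1.25 (Actn4 on plastic).

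The folds of the listed regions stood close to the limit of 1. Those for plastic ran from 1.08 to 1.24 with a median of 1.15, and those for 32 kPa from 1.02 to 1.23 with a median of 1.04, against a median of 1.12 over either whole list, per the authors' deposited tables. These folds were selected by the authors' limit and are given as a description. For regions listed in a single comparison, the level on the other stiffer culture was set beside the same 0.2 kPa libraries. The 4 regions listed for 32 kPa alone were 0.60 to 0.98 above 0.2 kPa on plastic, against a median of 0.86 over all 1327 such regions in the window. The 2 listed for plastic alone were 0.85 and 0.98 above it on 32 kPa, against a median of 0.84 over all 1200. Nearly all such regions were above 0.2 kPa (99.8% in either case), and since the comparisons share the 0.2 kPa libraries, the direction at these 6 is read as a description only. These differences take the level on 0.2 kPa from the list and the other level from the table of both stiffer cultures, where the region can be some bases longer or shorter. Between plastic and 32 kPa themselves, the smallest p at the 9 listed regions was 0.253 in the authors' deposited table (at Flnc, FDR = 1).

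Plastic and 32 kPa were compared directly in the third deposited table, and by the authors' DiffBind test none of the 62 regions was called. Every region had an FDR of 1 in the authors' deposited table, so 0% of the 53913 regions in the window were called at an FDR of 0.05. At an unadjusted p below 0.05 there was 1 of the 62 regions (1.61%), against 0.536% of all in the window. Evenly spread p-values would put 5% of regions under that threshold, so the deposited p-values of this comparison ran high, and an FDR of 1 says little on whether the cultures differed. The region under the threshold lay 23.6 kb from a Tpm1 start site, beyond the 3′ end of the gene, and by the authors' deposited table it had 4.16 on plastic and 2.74 on 32 kPa (fold 1.42, p = 0.0425, FDR = 1). It was the second largest difference after that of a weak region 31.6 kb upstream of Myh9, with 3.96 on plastic and 2.53 on 32 kPa (fold 1.43, p = 0.0592, in the authors' deposited table). The median fold of the 62 regions was 0.08, with plastic higher at 37 (59.7%), lower at 24 and equal at 1, against a median of 0.04 and 53.8% higher over all regions in the window. Among the 24 regions with a mean level of at least 5 the folds ran from -0.43 to 0.35, with 12 regions in each direction and a median of -0.005, against -0.02 over all regions that strong. At the 9 listed regions they ran from -0.43 at Flnc to 0.29 at the intronic region of Myh9, and at the 10 promoters from -0.39 at Actb to 0.27 at Actn4, with 8 of the 10 lower on plastic, against 50.7% of all promoter regions. The largest differences were those of weak regions, and the data do not show that any of the regions was alike in the 2 cultures.

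The wider actomyosin system was followed through 65 other genes, chosen with earlier results of these data known. Of these, 62 had a region in the window. On plastic 11 of 49 genes with a region high enough had a listed one (22.4%, against 15.4% of all genes), and on 32 kPa 14 of 47 (29.8%, against 17.2%). Among all genes with at least 5 regions the shares were higher, 20.8% for plastic and 24.2% for 32 kPa. The matching shares of the 65 genes were not computed. Of their listed genes, only Cfl2 and Limk2 had at least 5 regions on plastic. On 32 kPa these were Palld, Synpo, Lima1, Cnn3, Capzb, Tmsb10 and Limk2. Counting genes with a region high enough, bundling and crosslinking proteins had 1 of 10 listed on plastic and 5 of 9 on 32 kPa. Filament assembly and turnover had 4 of 20 on plastic and 3 of 19 on 32 kPa, and regulators 2 of 9 on each. Both other tropomyosins, Tpm2 and Tpm3, had a listed promoter in each comparison.

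Listed in both comparisons, which share the 0.2 kPa libraries, were Myl9, Tpm2, Tpm3, Tagln, Diaph1, Limk2, Arhgef2 and Acta2. The promoter of Myl9, a regulatory light chain of myosin II, had 6.18 on plastic, against 4.88 on 0.2 kPa (fold 1.31, FDR = 0.003), and 5.93 on 32 kPa, against 4.83 on 0.2 kPa (fold 1.10, FDR = 0.0261), in the authors' deposited tables. Its fold was the largest on plastic among the 65 other genes, followed by those of the actin-bundling gene Tagln (1.26) and the smooth muscle actin gene Acta2 (1.22), both at the promoter, in the authors' deposited table. On 32 kPa the largest among them was at Palld, which encodes the actin-crosslinking protein palladin, in an intronic region 51.3 kb upstream of the nearest start site. It had 5.09 on 32 kPa, against 3.53 on 0.2 kPa, a fold of 1.56 in the authors' deposited table (FDR = 0.018). Next on 32 kPa came intronic regions of Limk2, a kinase that inhibits cofilin, and Arhgef2, an activator of RhoA, with folds of 1.34 and 1.23 by the authors' deposited table, and with 1.11 and 1.06 on plastic. An intronic region of Diaph1, a formin that elongates filaments, had 1.08 on plastic and 1.09 on 32 kPa by the authors' deposited tables. Tpm2 had folds of 1.08 on plastic and 1.03 on 32 kPa and Tpm3 of 1.02 on plastic and 1.13 on 32 kPa, by the same deposited tables of the authors. On 32 kPa the fold of Tagln was 1.18 and that of Acta2 1.12, again by the authors' deposited table.

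The promoters whose levels came closest to those of the listed Myh9 and Actn1 promoters were sought by Euclidean distance over the 3 culture levels, among 958 other promoter regions listed for 32 kPa. For Myh9 these were Mdh1 (8.21 on plastic, 8.15 on 32 kPa, 7.15 on 0.2 kPa), Zbtb5 and Ttc41, at distances of 0.0854, 0.097 and 0.104 log2 units. For Actn1 these were Rcl1 (7.0 on plastic, 7.01 on 32 kPa, 5.86 on 0.2 kPa), Mapk8 and Mir1938, at 0.0616, 0.0768 and 0.103. With 3 culture means, this is a description of levels alone.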

How the data were processed

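Open chromatin was profiled in 6 libraries, 2 for each of plastic, 32 kPa PDMS and 0.2 kPa PDMS, from 50000 cells per library. BWA, Picard, MACS2 and DiffBind, with the build mm10, are named in the submitters' processing notes, and their settings are not given in the sources used here. Per the file headers, the deposited levels and folds are log2 values in the layout of a DiffBind report, and each p-value or FDR is as deposited by the authors. No table gives values per library, so depth is unknown and no interval or own test could be made. The 9 genes, the gene lists and the comparisons were chosen with earlier results of these data known.

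The tables against 0.2 kPa call their sides Control and Treat. At 643 intervals identical between the tables, the Control level equalled the named 32 kPa level, and at 653 intervals it lay 0.01 to 0.02 above the named plastic level. Control was therefore taken for the stiffer side. Starts in these 2 tables were raised by 1 base, and 1 repeated header row was dropped. Listed regions were tied to the table of 32 kPa and plastic by at least 50% of both lengths. A region is assigned to the gene of its nearest start site and may act on another gene. All regions of the 9 genes were described. Those named are all listed regions, the promoters and the strongest region of each gene. The 2 largest differences between plastic and 32 kPa were added after their values were seen. So were some, not all, of the unlisted regions high enough to be listed. Of the 65 other genes, those listed in both comparisons or with the 3 largest folds in either were named. Region matching was tested on simulated data. Backgrounds of genes with at least 5 regions and of regions with a level of at least 6 were added after seeing the data. Python 3.11.15, pandas 2.3.3, numpy 2.4.6 and matplotlib 3.10.9 were used.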

Additional observations from a re-analysis of the deposited data

How the results depend on the processing

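Counts depended on the limits. With an FDR of at most 0.01, 4 genes of the wider list were listed for plastic, and 3 regions at 3 of the 9 genes and 5 genes of the wider list for 32 kPa. With a fold of at least 1.2 the values were 2 regions of the 9 genes and 3 genes of the wider list for plastic, and 1 region at 1 gene and 3 genes of the wider list for 32 kPa. Within 10000 bases of a start site they were 1 region at 1 gene for plastic and 3 regions at 3 genes for 32 kPa. The share of all regions listed was 11.1% for plastic and 12.5% for 32 kPa among regions high enough to be listed, and, by a background added after seeing the data, 12.4% for plastic and 17.9% for 32 kPa among regions with a level of at least 6. Between plastic and 32 kPa 1 region passed at an unadjusted p of at most 0.05. The median fold there was -0.025 with a filter on low values, -0.02 within 10000 bases and 0.03 with the median of all regions subtracted. The cause of these shifts was not tested. A stricter limit on FDR, fold or distance leaves fewer regions to count. The other alternatives left each value they were run for within 1.5 times, among them no distance limit for the counts and matching at 1 bp for the share of all regions listed. No paired analysis was possible because the columns carry 1 mean per culture and no replicate numbers, and for the same reason no library could be left out.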
